A study of Mus musculus with 20 samples.

Results

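Expression of 10 genes known for high levels in thalamus was measured in RNA from mouse cortex: Shox2, Tcf7l2, Lef1, Prkcd, Tnnt1, Rgs16, Vipr2, Slc17a6, Ntng1 and Slitrk6. They were selected on measured values of these same libraries, the differences in read counts between the 4 groups described next, and were taken by symbol from a table of 43346 genes. All 10 passed the filter on low counts, as did 19623 genes in all. Their levels and group differences are therefore a description of these libraries. Counts of the 10 that the main model called are printed beside the share of all genes called. Counts from other settings, or without single libraries, have no such share beside them. Nothing is read from any of these counts, nor from counts of the 10 with an unadjusted p under 0.05.

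Total RNA from cortex was sequenced to ask what a substitution in Abca7, a lipid transporter gene, does to amyloid pathology and to immune responses in the brain. Every animal was of the 5xFAD line in the hemizygous state (5xFAD+/-), an amyloid model whose transgenes are driven by the neuronal Thy1 promoter. Control libraries carried wild-type Abca7 and knockin (KI) libraries carried Abca7 p.A693S, which corresponds to A696S in human ABCA7. The 4 groups were control at 3 months, KI at 3 months, control at 10 months and KI at 10 months, with 5 libraries each. Per the protocol the animals were male littermates, and knockin animals were heterozygous or homozygous, but the KI label does not say which. Nothing in the labels ties each library to an animal of its own, so p-values reflect only how much these libraries vary.

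The thalamus lies beneath the cortex and relays sensory and motor signals to it through excitatory projection neurons. Its neurons are specified in the embryo by transcription factors, among them the Wnt effectors Tcf7l2 and Lef1, and keep Tcf7l2 in the adult, while most cortical excitatory neurons use another vesicular glutamate transporter, Slc17a7, in place of Slc17a6. Some of the 10 genes, such as Ntng1, Rgs16 and Slc17a6, are also known to be expressed by cells of the cortex. In bulk tissue fewer cells of a type and less RNA per cell cannot be told apart.

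Library totals ran from 42896149 to 57447015 counts, and scaling factors from 0.972 to 1.03. The labelled tissue was visible in its markers: the cortical glutamate transporter Slc17a7 stood between 870 and 1408 CPM (counts scaled to a common library total) in every library. The summed level of 14 genes of cortical excitatory neurons ran from 1898 to 2460 CPM over the 20 libraries. In KI replicate 5 at 10 months the X-inactivation RNA Xist reached 54206 counts and the Y-linked Ddx3y 1 count, which goes against the protocol's male animals. The counts do not show the substitution itself.

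The sequences upstream of the 4 genes whose levels varied most closely with the rest (Shox2, Tnnt1, Prkcd and Tcf7l2) are shown because these genes moved together between libraries. Each is the 250 bases before a start site, 5′ to 3′ on the gene's strand, from RefSeq on GRCm38.p6; all 10 genes matched, with 16 start sites. Capitals mark TCAAAG, the core letters bound by TCF/LEF factors (searched on both strands as TCAAAG and CTTTGA), and TATAAA, the TATA box letters (searched on the gene's strand).
Shox2, chr3:66981772-66982021, minus strand: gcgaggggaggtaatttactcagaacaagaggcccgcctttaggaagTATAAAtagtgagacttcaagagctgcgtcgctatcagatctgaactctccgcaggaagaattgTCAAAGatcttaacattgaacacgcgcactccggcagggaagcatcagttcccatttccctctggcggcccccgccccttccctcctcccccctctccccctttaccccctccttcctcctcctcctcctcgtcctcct
Tnnt1, chr7:4515976-4516225, minus strand: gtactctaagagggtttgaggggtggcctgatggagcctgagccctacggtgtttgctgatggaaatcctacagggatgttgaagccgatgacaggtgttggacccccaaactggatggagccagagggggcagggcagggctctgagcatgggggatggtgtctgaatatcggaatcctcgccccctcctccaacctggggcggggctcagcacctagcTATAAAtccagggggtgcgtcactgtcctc
Prkcd, chr14:30626209-30626458, minus strand: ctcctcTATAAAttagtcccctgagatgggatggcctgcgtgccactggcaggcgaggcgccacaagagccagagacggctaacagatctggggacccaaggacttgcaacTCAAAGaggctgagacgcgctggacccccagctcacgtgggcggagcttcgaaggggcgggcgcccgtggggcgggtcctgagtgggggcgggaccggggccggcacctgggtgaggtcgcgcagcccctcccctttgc
Tcf7l2, chr19:55741560-55741809, plus strand: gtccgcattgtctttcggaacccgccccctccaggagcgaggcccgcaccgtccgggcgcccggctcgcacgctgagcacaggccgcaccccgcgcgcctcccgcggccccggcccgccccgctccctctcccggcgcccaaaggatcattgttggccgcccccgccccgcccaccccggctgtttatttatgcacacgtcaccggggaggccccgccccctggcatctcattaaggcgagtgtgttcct
The TCF/LEF letters stood 139 to 134 bases before the start site in both Shox2 and Prkcd. They were also present in 1 of 4 Lef1 windows, and in 13.8% of the 32851 windows of the same length in the RefSeq table. TATAAA stood 30 to 25 bases before the Tnnt1 start site, and farther upstream in Shox2 (203 to 198 bases) and Prkcd (244 to 239 bases), against 7.59% of all windows. The homeodomain core CAATTA, searched with its reverse complement TAATTG, occurred in 1 Prkcd window, at a start site not shown, and in 7.17% of all windows. None of the 3 searches matched the Tcf7l2 window. These matches describe letters in a window and show no binding.

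Shox2 (ENSMUSG00000027833, chromosome 3, 66971727 to 66981771 on mm10), a homeodomain transcription factor of thalamic relay neurons, was close to absent in most libraries and plainly present in a few. In control libraries at 3 months it stood at 0.018, 0.021, 4.23, 0.141 and 4.64 CPM in replicates 6 to 10, from 1, 1, 188, 7 and 203 counts. In KI libraries at 3 months it stood at 4.99, 7.95, 1.69, 3.29 and 3.55 CPM in replicates 3 to 7, from 211, 387, 84, 162 and 204 counts. All 5 KI libraries and control replicates 8 and 10 were thus high, and control replicates 6, 7 and 9 were low, so the 3-month groups overlapped.

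At 10 months Shox2 did not pass 4 counts in any library. It thus passed the low-count filter only through libraries of 3 months, and a call with age could only be lower. Control replicates 6 to 10 held 1, 1, 0, 3 and 1 counts, and KI replicates 3 to 7 held 4, 2, 0, 4 and 0. A count of 0 allows up to 3 counts, or 0.0619 CPM in control replicate 8 and 0.0562 and 0.0559 CPM in KI replicates 5 and 7, for counting error only. Shox2 lies over part of Rsrc1, a gene of RNA splicing, and the strand setting of the counting is not given in the sources used here. Rsrc1 stood between 42.7 and 53.1 CPM in all 20 libraries, including those where Shox2 was at 0.

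Tcf7l2 (ENSMUSG00000024985, chromosome 19, 55741810 to 55933654), the TCF/LEF factor that carries Wnt signals to target genes in thalamic neurons, had the same pattern on a higher floor. In control libraries at 3 months it stood at 3.54, 3.90, 10.1, 4.24 and 11.9 CPM in replicates 6 to 10. In KI libraries at 3 months it stood at 9.65, 18.3, 6.45, 11.3 and 11.04 CPM in replicates 3 to 7. The same control replicates, 8 and 10, stood with the KI libraries, and the other 3 stood with the 10-month libraries, whose range was 3.46 to 4.72 CPM over both genotypes.

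Lef1 (ENSMUSG00000027985, chromosome 3, 131110471 to 131224356), a second factor of the TCF/LEF family, which brain endothelium also uses, did not follow that split. Control libraries at 3 months stood at 4.91, 6.02, 6.00, 4.04 and 3.84 CPM in replicates 6 to 10, with replicate 7 highest and replicate 10 lowest. KI libraries at 3 months stood at 5.39, 6.80, 6.53, 6.34 and 5.64 CPM in replicates 3 to 7. Control replicate 10, which held 203 counts of Shox2, thus had less Lef1 than any KI library of its age. At 10 months control libraries ran from 3.73 to 5.01 CPM and KI libraries from 2.71 to 3.87 CPM, and the genotypes overlapped.

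Prkcd (ENSMUSG00000021948, chromosome 14, 30595356 to 30626210) encodes protein kinase C delta, a signalling kinase abundant in thalamic relay neurons. Its level in control libraries at 3 months was 10.5, 12.7, 63.3, 14.1 and 45.5 CPM in replicates 6 to 10. In KI libraries at 3 months it was 46.1, 83.5, 30.8, 42.3 and 60.8 CPM in replicates 3 to 7. Control replicate 8 exceeded 4 of the 5 KI libraries, while control replicates 6, 7 and 9 fell inside or below the 10-month range of 13.2 to 18.4 CPM.

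Tnnt1 (ENSMUSG00000064179, chromosome 7, 4504570 to 4516382), a troponin T of slow muscle that thalamic neurons also express, stood at 1.37, 1.13, 5.60, 1.53 and 5.38 CPM in control libraries at 3 months. KI libraries at 3 months stood at 4.42, 10.3, 3.71, 6.83 and 7.93 CPM. At 10 months control libraries ran from 1.24 to 2.06 CPM and KI libraries from 1.35 to 1.92 CPM. Each KI library at 3 months lay above all 10 libraries of 10 months.

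The ratio of Tnnt1 to Shox2 counts was not the same in all 7 libraries with at least 50 Shox2 counts. It was 0.886 (95% exact interval 0.724 to 1.08) in KI replicate 3, 1.29 (1.13 to 1.48) in KI replicate 4, 1.16 (0.955 to 1.40) in control replicate 10 and 1.32 (1.09 to 1.61) in control replicate 8. It was 2.19 (1.68 to 2.87), 2.07 (1.71 to 2.52) and 2.24 (1.89 to 2.65) in KI replicates 5, 6 and 7. The intervals of the last 3 lay above those of the first 4, and cover counting error only. Libraries with fewer than 50 Shox2 counts held 54 to 115 Tnnt1 and 586 to 983 Prkcd counts. Such a floor raises these ratios most where Shox2 is low, as in KI replicate 5 with 84 counts. It was not taken off. At 204 and 203 Shox2 counts, KI replicate 7 and control replicate 10 held 456 and 235 Tnnt1 counts. Whether the libraries differed in make-up was not tested. Prkcd counts per Shox2 count ran from 9.24 to 18.2 over these 7 libraries, and Slitrk6 counts from 0.37 to 0.637.

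Vipr2 and Rgs16 act in G protein signalling. Vipr2 (ENSMUSG00000011171, chromosome 12, 116077726 to 116146261), a receptor for vasoactive intestinal peptide, ran from 1.57 to 4.45 CPM in control (median 2.05) and 3.12 to 6.00 CPM in KI at 3 months (median 4.47). At 10 months it ran from 1.14 to 2.06 CPM in control and 1.32 to 1.74 CPM in KI. Rgs16 (ENSMUSG00000026475, chromosome 1, 153740349 to 153745468), which shortens signals of G protein coupled receptors, ran from 11.1 to 16.02 CPM in control and 13.8 to 21.9 CPM in KI at 3 months. Its 10-month ranges were 10.9 to 13.3 and 9.65 to 14.6 CPM, so that its groups overlapped in every comparison.

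Slc17a6 (ENSMUSG00000030500, chromosome 7, 51621830 to 51671125), the vesicular glutamate transporter of thalamic relay neurons, differed less between libraries. It stood at 41.4, 36.6, 50.7, 47.5 and 51.2 CPM in control replicates 6 to 10 at 3 months, and at 58.4, 65.7, 42.0, 41.5 and 47.5 CPM in KI replicates 3 to 7. The control libraries with almost no Shox2 thus held Slc17a6 at 36.6 to 47.5 CPM. At 10 months it ran from 29.3 to 37.9 CPM in control and 28.0 to 50.1 CPM in KI, the highest being KI replicate 5, the library with high Xist.

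Ntng1 and Slitrk6 encode membrane proteins of axons and synapses. Ntng1 (ENSMUSG00000059857, chromosome 3, 109780040 to 110144011), the netrin G1 that guides thalamocortical axons, ran from 43.9 to 54.1 CPM in control and 47.1 to 64.6 CPM in KI at 3 months. Its ranges at 10 months were 34.1 to 44.0 CPM in control and 36.5 to 46.05 CPM in KI. Slitrk6 (ENSMUSG00000045871, chromosome 14, 110748578 to 110755149), a neuronal membrane protein that shapes synapses, ran from 0.294 to 2.63 CPM in control and 0.665 to 3.96 CPM in KI at 3 months. At 10 months it was between 0.215 and 1.01 CPM in the 10 libraries.

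**Figure D1:**
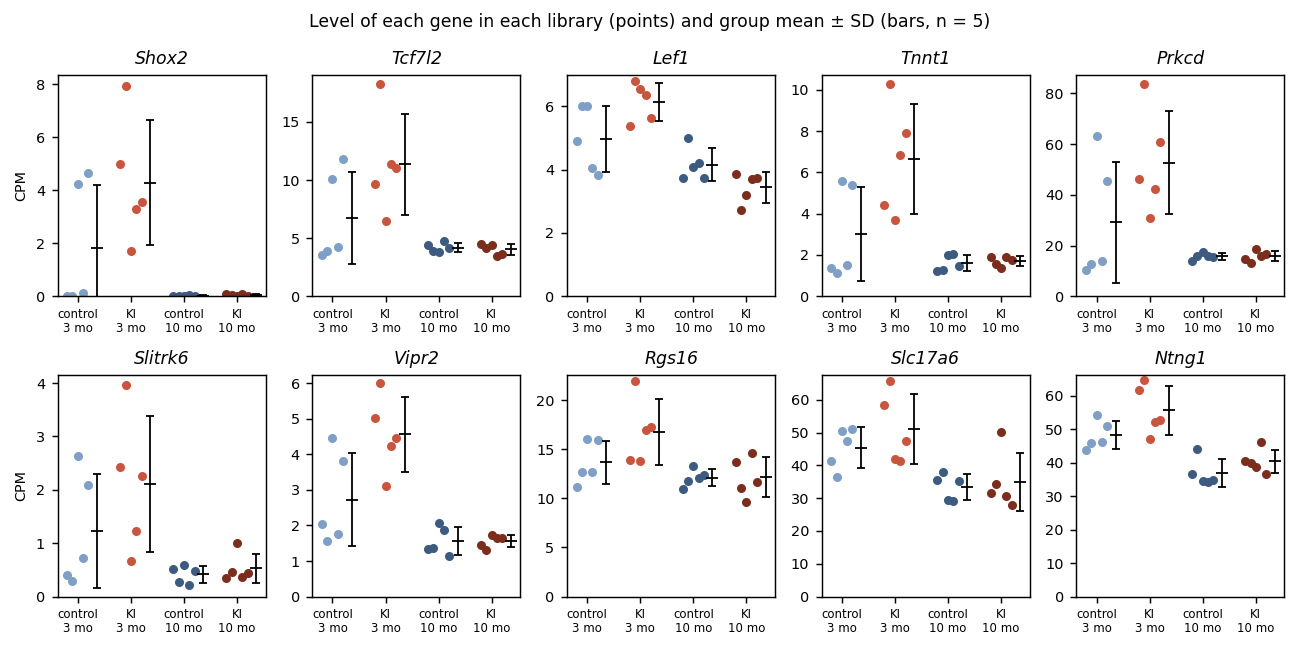
Level of each of the 10 genes in CPM (vertical axes, each from 0) in each of the 20 libraries (points), with the group mean and SD (bars, n = 5, cut at 0). In Shox2, Tcf7l2, Tnnt1, Prkcd, Slitrk6 and Vipr2, control replicates 8 and 10 at 3 months stand apart from the other 3 control libraries of that age, as for Prkcd at 63.3 and 45.5 CPM against 10.5 to 14.1 CPM.

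The ranking of libraries was shared by most of the genes. KI replicate 4 at 3 months was the highest of the 20 libraries for 10 of the 10 genes. Control replicate 8 and KI replicates 3, 4 and 7 at 3 months were among the 7 highest libraries for 10 of the 10 genes. Control replicate 10 and KI replicate 6 were so for 9 genes, and KI replicate 5 for 7. No library of 10 months was among the 7 highest for more than 2 genes.

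A score for each library, the mean over the 10 genes of log2 CPM centred on each gene's mean, summarised this order. At 3 months it was -0.61, -0.62, 1.14, -0.28 and 0.99 in control replicates 6 to 10. In KI replicates 3 to 7 of that age it was 1.08, 1.67, 0.48, 0.95 and 1.14. At 10 months it ran from -0.66 to -0.55 in control and from -0.68 to -0.49 in KI. The score of control libraries at 3 months thus ran from the level of 10-month libraries to that of the KI libraries of 3 months, and that of 10-month libraries kept to a narrow range.

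**Figure D2:**
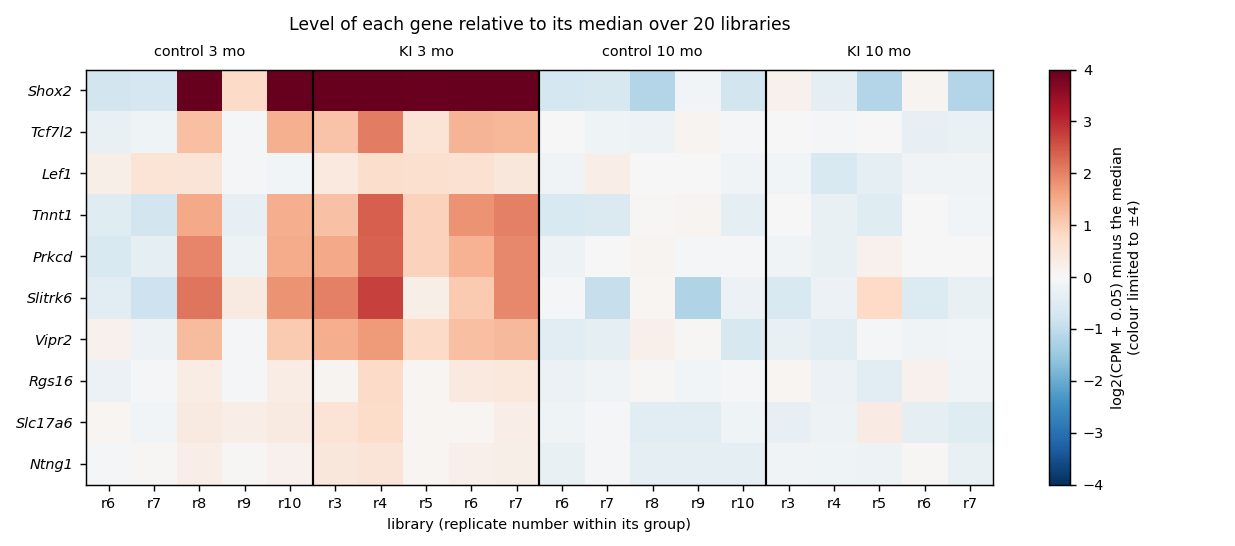
Level of each gene (rows) in each library (columns, by group and replicate number) as log2(CPM + 0.05) minus the gene's median over 20 libraries, with colour limited at 4 in each direction. The 7 libraries that are dark for Shox2 are control replicates 8 and 10 and all 5 KI replicates at 3 months. They are also above the median, in paler colour, for Tcf7l2, Tnnt1, Prkcd and Vipr2, and least so KI replicate 5, whose score was 0.48.

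The spread between libraries of one group was wide for some of the genes and ordinary for others. The biological coefficient of variation (the fitted spread between replicates, as a share of the level) was 1.17 for Shox2, 0.562 for Slitrk6, 0.422 for Prkcd, 0.411 for Tnnt1, 0.318 for Tcf7l2 and 0.271 for Vipr2. The median over all genes tested was 0.135, and 99.9% of genes lay below Shox2 and 88.4% below Vipr2. Slc17a6 at 0.169, Rgs16 at 0.15 and Lef1 at 0.149 were near that median, and Ntng1 at 0.107 was below it.

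The genes with wide spread were also those that varied together. After each group's mean was subtracted, Pearson's r of each gene's log2 CPM with the mean of the other 9 over 20 libraries was 0.967 for Prkcd, 0.935 for Tcf7l2, 0.904 for Tnnt1, 0.873 for Shox2, 0.86 for Vipr2 and 0.79 for Slitrk6. It was 0.676 for Rgs16, 0.59 for Ntng1 and 0.475 for Slc17a6. Lef1 stood apart at -0.0787. The libraries are the same for all genes and were used to choose them, so these values carry no test.

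Levels can be compared between genes only per length, as RPKM (CPM divided by the deposited gene length in kilobases). In KI libraries at 3 months the order of mean RPKM was Slc17a6 at 11.8 ± 2.47, Prkcd at 10.6 ± 4.07, Rgs16 at 7.17 ± 1.42 and Ntng1 at 6.75 ± 0.883 (SD, n = 5). Tnnt1 followed at 3.01 ± 1.21, then Tcf7l2 at 1.30 ± 0.496, Shox2 at 1.30 ± 0.711, Vipr2 at 1.02 ± 0.236, Lef1 at 0.709 ± 0.0694 and Slitrk6 at 0.497 ± 0.299 RPKM. Among neighbours in this order, the means of Ntng1 and Tnnt1 differed by more than the sum of their SDs, and so, narrowly, did those of Tnnt1 and Tcf7l2 and of Vipr2 and Lef1, while the other neighbours did not.

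In control libraries at 10 months Slc17a6 led at 7.75 ± 0.895 RPKM, followed by Rgs16 at 5.17 ± 0.373, Ntng1 at 4.47 ± 0.501 and Prkcd at 3.15 ± 0.253 (SD, n = 5). Shox2 was last at 0.00694 ± 0.00587 RPKM. Slc17a6, Rgs16, Ntng1 and Prkcd thus kept levels above 3 RPKM in cortex in which Shox2 was close to absent, and Prkcd moved from the second to the fourth place.

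KI libraries had higher mean levels than control libraries at 3 months for 10 of 10 genes, beside 52.4% of all genes with a log2 fold change above 0, with wide overlap between the groups. Mean Shox2 was 4.29 ± 2.35 CPM in KI against 1.81 ± 2.40 in control, mean Tnnt1 6.63 ± 2.66 against 3.00 ± 2.28, and mean Prkcd 52.7 ± 20.3 against 29.2 ± 23.8 CPM (SD, n = 5 each). As log2 fold changes with their SE, the differences were 1.27 ± 0.81 for Shox2, 1.16 ± 0.38 for Tnnt1, 0.85 ± 0.39 for Prkcd, 0.80 ± 0.51 for Slitrk6, 0.76 ± 0.29 for Tcf7l2 and 0.75 ± 0.25 for Vipr2. They were 0.31 ± 0.14 for Lef1, 0.30 ± 0.13 for Rgs16, 0.21 ± 0.09 for Ntng1 and 0.17 ± 0.15 for Slc17a6.

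Of the 10 genes, 0 were called at 3 months by edgeR at an adjusted p under 0.05, beside 0.0255% of all genes tested. DESeq2 and limma-voom called 0 as well. An unadjusted edgeR p under 0.05 was found for 7 of the 10 and for 745 of the 19623 genes. The 10 were selected on differences between these groups, so these counts are no test of them. For 0 of 10 genes did every KI library exceed every control library, beside 0.306% of all genes. The median log2 fold change was 0.75 over the 10 genes and 0.01 over all genes.

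These 3-month differences moved with single libraries. Without KI replicate 4 the log2 fold change of Prkcd was 0.63, and without control replicate 8 it was 1.35. Slitrk6 ran from 0.44 to 1.29 when the same libraries were left out, and Slc17a6 from 0.06 without KI replicate 4 to 0.23 without KI replicate 6. Shox2 ran from 0.92 without KI replicate 4 to 1.99 without control replicate 10, and Tcf7l2 from 0.52 to 1.06 without the same libraries.

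At 10 months the genotypes had nearly the same mean levels. Prkcd was 15.8 ± 1.93 CPM in KI and 15.7 ± 1.26 in control, Tcf7l2 was 4.03 ± 0.443 and 4.18 ± 0.380, Tnnt1 was 1.70 ± 0.249 and 1.60 ± 0.396, and Vipr2 was 1.56 ± 0.173 and 1.56 ± 0.389 CPM (SD, n = 5 each). The log2 fold changes were between -0.27 ± 0.14 for Lef1 and 0.34 ± 0.59 for Slitrk6, leaving aside Shox2, whose 0.61 ± 2.48 rests on 10 and 6 counts in all. Of the 10 genes 0 were called, beside 0.0612% of all genes, and 0 had an unadjusted p under 0.05, against 1543 of all genes. DESeq2 and limma-voom also called 0. For 0 of 10 genes did every KI library exceed every control library, beside 0.907% of all genes. When the Xist-rich KI replicate 5 was left out, the value of Slc17a6 turned from 0.06 to -0.10, that of Slitrk6 from 0.34 to -0.03 and that of Prkcd from 0.01 to -0.06 on the log2 scale.

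The 10 genes were lower on average at 10 than at 3 months in both genotypes. In KI, mean Prkcd was 52.7 CPM at 3 and 15.8 CPM at 10 months, mean Tnnt1 6.63 and 1.70 CPM, mean Tcf7l2 11.4 and 4.03 CPM, and mean Lef1 6.14 ± 0.600 and 3.44 ± 0.484 CPM. The log2 fold changes in KI were -6.75 ± 1.26 for Shox2, -1.99 ± 0.54 for Slitrk6, -1.97 ± 0.39 for Tnnt1, -1.74 ± 0.40 for Prkcd, -1.55 ± 0.25 for Vipr2 and -1.50 ± 0.30 for Tcf7l2. They were -0.84 ± 0.14 for Lef1, -0.54 ± 0.15 for Slc17a6, -0.46 ± 0.13 for Rgs16 and -0.46 ± 0.09 for Ntng1.

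In KI, 10 of the 10 genes were called lower at 10 months, beside 2.41% of all genes tested. For Shox2 no other call was possible, since it passed the low-count filter only through libraries of 3 months. Without KI replicate 4 of either age the count was 7. The groups did not overlap for 7 of the 10 genes (Shox2, Tnnt1, Prkcd, Tcf7l2, Lef1, Ntng1 and Vipr2), beside 1.83% of all genes that were lower without overlap. Slc17a6, Rgs16 and Slitrk6 overlapped. Without KI replicate 5 at 10 months 9 of the 10 were called lower, and the log2 fold change of Slc17a6 was -0.71 and that of Slitrk6 -2.36.

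In control, the log2 fold changes from 3 to 10 months were -6.09 ± 1.41 for Shox2, -1.54 ± 0.56 for Slitrk6, -0.89 ± 0.39 for Tnnt1, -0.89 ± 0.40 for Prkcd, -0.80 ± 0.26 for Vipr2 and -0.68 ± 0.30 for Tcf7l2. They were -0.44 ± 0.15 for Slc17a6, -0.39 ± 0.09 for Ntng1, -0.26 ± 0.14 for Lef1 and -0.18 ± 0.13 for Rgs16. Shox2 could only be called lower, as it passed the low-count filter through libraries of 3 months alone. Of the 10 genes 2 were called lower, Shox2 and Ntng1, beside 0.357% of all genes. Without control replicate 8 at 3 months the count was 1. Without that library the log2 fold change of Prkcd was -0.40 and that of Tnnt1 -0.54, and without replicate 10 that of Tcf7l2 was -0.38. With limma-voom that of Shox2 was -2.95. The groups did not overlap, with 10 months lower, for 0 of 10 genes, beside 1.13% of all genes. Control replicates 6, 7 and 9 at 3 months stood at or near the 10-month levels for most of the genes, but their Ntng1 at 43.9 to 46.1 CPM lay above 4 of the 5 control libraries at 10 months.

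The genotype by age interaction, which asks whether the change with age differed between genotypes, had a negative log2 value for 10 of 10 genes, with a median of -0.62, while 48.9% of all genes had a value above 0 and their median was 0.00. Without KI replicate 4 at 3 months that of Slc17a6 turned from -0.10 to 0.00493 and that of Slitrk6 was -0.10 in place of -0.45. That of Shox2 ran from -1.39 without control replicate 10 at 3 months to -0.10 without control replicate 9 at 10 months, and was -2.94 with limma-voom. The values ran from -1.07 ± 0.55 for Tnnt1 to -0.07 ± 0.13 for Ntng1. Of the 10 genes 0 were called by edgeR, beside 0% of all genes, and 1 had an unadjusted p under 0.05 against 883 of all genes. DESeq2 and limma-voom called 0 of the 10. The comparisons share libraries, so these values restate those of the single comparisons and are no separate support for them.

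**Figure D3:**
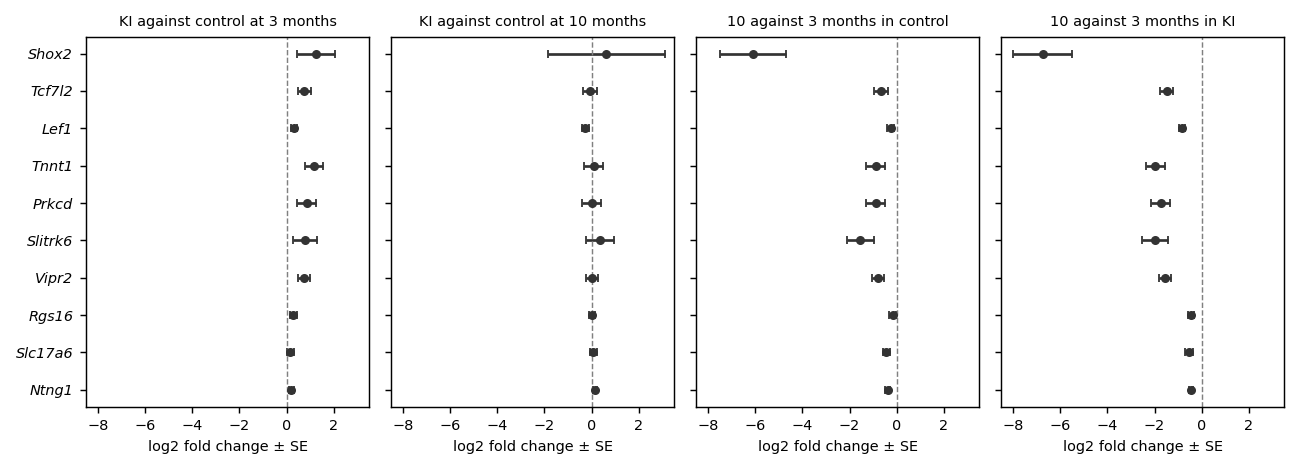
Log2 fold change (horizontal axis) with its SE (bars) of each gene in 4 comparisons, from the edgeR fit over 20 libraries. Values at 3 months lie to the right of 0 and those of both age comparisons to the left, with Shox2 at -6.09 in control and -6.75 in KI, while those between genotypes at 10 months scatter around 0.

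Other genes known from thalamus, 20 in all and none of the 10, were written as a list with earlier results of these data known. Gbx2, a thalamic homeodomain factor, did not pass the low-count filter: it held 22 counts in control replicate 10 and 5, 37, 2, 13 and 10 counts in KI replicates 3 to 7 at 3 months, and at most 5 in the other 14 libraries. Control replicate 8, with 188 counts of Shox2, held 1 count of Gbx2. Of the 19 tested, 17 had a log2 fold change above 0 in KI against control at 3 months (median 0.13), beside 52.4% of all genes. Of these 19, 0 were called by edgeR, DESeq2 or limma-voom, and 4 had an unadjusted p under 0.05. Those of smallest p were Amotl1 at 0.29 ± 0.11, Plekhg1 at 0.46 ± 0.20 and Inadl at 0.41 ± 0.18 on the log2 scale (edgeR adjusted p = 1 for each).

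With age in KI, 7 of the 19 fell and 0 rose by the edgeR test over all genes, beside 2.41% lower and 5.66% higher of all genes, and the median log2 fold change was -0.37. Without KI replicate 5 at 10 months 8 fell. Plekhg1 stood at 41.6, 54.7, 24.9, 29.7 and 36.04 CPM in KI replicates 3 to 7 at 3 months and at 17.9 to 20.1 CPM at 10 months. It fell by 0.95 ± 0.20 on the log2 scale (adjusted p = 0.0036). Synpo2, an actin-binding protein, fell by 1.11 ± 0.27 (adjusted p = 0.013), and Zic1, a zinc finger factor of the developing diencephalon, by 0.89 ± 0.20 (adjusted p = 0.00753). Inadl, a scaffold of tight junctions, fell by 0.85 ± 0.18 (adjusted p = 0.00415), and Hcn4, a pacemaker channel of thalamic neurons, by 0.74 ± 0.17 (adjusted p = 0.00616). Calb2, the calcium-binding protein calretinin, fell by 0.62 ± 0.16 (adjusted p = 0.0186), and Amotl1, a cell-junction protein, by 0.58 ± 0.11 (adjusted p = 0.00225).

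With age in control 0 of the 19 were called by edgeR, 7 having an unadjusted p under 0.05, and DESeq2 and limma-voom each called 2. Zic1 had a log2 fold change of -0.70 ± 0.20 (edgeR adjusted p = 0.0603), Hcn4 of -0.56 ± 0.16 (adjusted p = 0.0607) and Plekhg1 of -0.54 ± 0.20 (adjusted p = 0.174). Between genotypes at 10 months 0 of 19 were called, with 0 at an unadjusted p under 0.05. The interaction was called for 0 of 19, with 1 at an unadjusted p under 0.05, and all 3 tools gave 0 for both. So a difference between genotypes in the change with age was not detected for these genes.

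The genes whose levels most resembled the score of the 10, by Pearson's r over 20 libraries after group means were subtracted, were taken from 13859 genes with a mean of at least 1 CPM. The first 12 were Plekhg1 at 0.933, Rab37 and Synpo2 at 0.866, Plekhd1 at 0.823, Abhd12b at 0.796, Amotl1 at 0.774, BC035947 at 0.764, Vav3 at 0.752, Nefh at 0.741, Inadl at 0.724, Paqr8 at 0.723 and Cyp27a1 at 0.7. Plekhg1, Synpo2, Amotl1 and Inadl are on the list of 20 other thalamic genes. Abhd12b, of the family of lipid hydrolases, stood at 0.485, 0.525, 2.63, 0.583 and 1.58 CPM in control replicates 6 to 10 at 3 months and at 2.72, 6.26, 1.71, 2.66 and 3.15 CPM in KI replicates 3 to 7. Rab37, a small GTPase of vesicle release, stood at 2.63 to 6.93 CPM in control and 4.80 to 14.4 CPM in KI, with KI replicate 4 again highest. Paqr8 and Cyp27a1 had r of 0.07 and -0.10 when group means were not subtracted, so that they resembled the score within groups only.

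**Figure D4:**
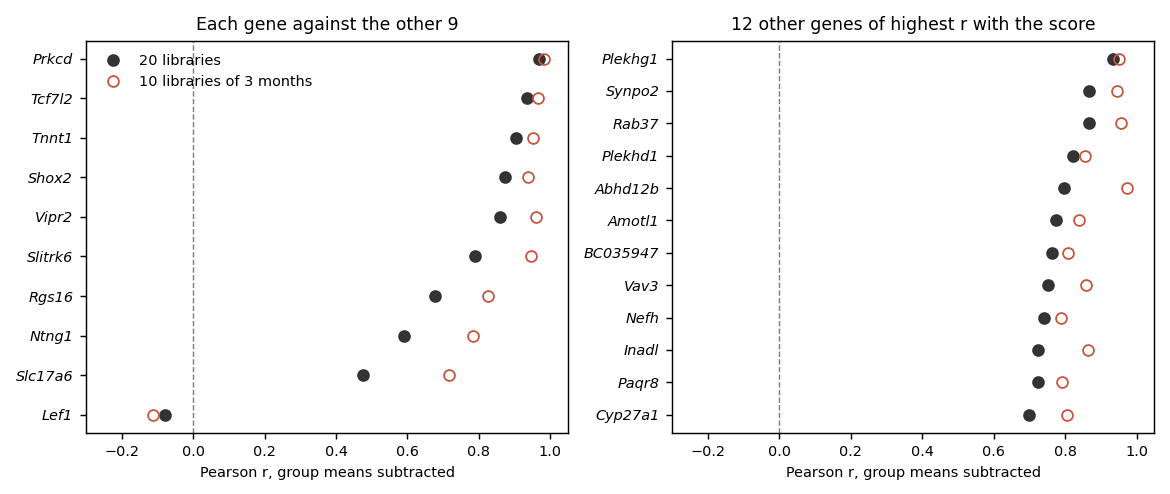
Pearson's r (horizontal axes), after group means were subtracted, of each of the 10 genes with the mean of the other 9 (left) and of the 12 other genes of highest r with the score (right), over 20 libraries (filled) and over the 10 libraries of 3 months (open). Prkcd leads on the left at 0.967 and Lef1 is last at -0.0787, and Plekhg1 leads on the right at 0.933.

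Genes of the Wnt pathway were examined because Tcf7l2 and Lef1 are its effectors. Of 13 listed, 12 were tested, and 0 were called between genotypes at either age or with age in control. In KI with age 2 fell and 0 rose, beside 2.41% and 5.66% of all genes: Lgr5, a receptor for R-spondins, by 0.57 ± 0.16 on the log2 scale (edgeR adjusted p = 0.0284), and Znrf3, a ubiquitin ligase that removes Wnt receptors, by 0.27 ± 0.08 (adjusted p = 0.0336). Axin2, a common Wnt target, stood at 21.2 ± 2.52 CPM in KI at 3 months and 17.9 ± 2.11 CPM at 10 months (SD, n = 5 each) and was not called. The r with the score was 0.288 for Lgr5, 0.219 for Znrf3 and -0.167 for Axin2.

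Markers of tissues that neighbour the thalamus or cortex were read beside the 10 genes. Of 5 tested genes of inhibitory neurons of the diencephalon, 2 fell with age in KI, Lhx1 (edgeR adjusted p = 0.000227) and Gata3 (adjusted p = 0.0383), both developmental transcription factors, beside 2.41% of all genes lower. Lhx1 held 12, 19, 5, 10 and 10 counts in KI replicates 3 to 7 at 3 months. At 10 months it held 1 count over the 5 KI libraries. Gata3 held 7 to 20 counts in KI at 3 months and 0 to 3 at 10 months. Both genes passed the low-count filter only through libraries of 3 months. A call with age in either genotype could therefore only be lower, and nothing is read from these calls. In control, Lhx1 held 13, 7, 12, 3 and 12 counts in replicates 6 to 10 at 3 months and 0 to 4 at 10 months and fell (adjusted p = 0.0137), as did 0.357% of all genes. It was thus highest in replicate 6, which held 1 count of Shox2, and did not follow the split of the control libraries. Gata3 held 13 and 14 counts in control replicates 8 and 10 at 3 months and 0, 0 and 1 in replicates 6, 7 and 9. The r with the score was 0.738 for Gata3, 0.467 for Lhx1, 0.356 for Pax6, 0.0758 for Otx2 and 0.05 for Ecel1, the 5 tested genes. Among 9 tested genes of the habenula, 1 fell with age in KI, Chrna3, a nicotinic receptor subunit, by 1.35 ± 0.26 on the log2 scale (adjusted p = 0.00198). The habenular factor Pou4f1 held at most 6 counts in any library, while Tac2 held 227 to 530 and Chrnb3 66 to 149. Irx2, like Pou4f1 removed by the low-count filter, reached 27 counts. Its mean at 3 months was 0.117 ± 0.165 CPM in control and 0.218 ± 0.202 CPM in KI (SD, n = 5 each). At 10 months the means were 0.0185 and 0.0300 CPM. A habenula score, computed as for the 10 genes, ran from 0.143 to 0.309 in KI at 3 months. In control of that age it ran from -0.207 to 0.0279, so the groups did not overlap. Their summed levels did, at 122.8 to 172.6 and 125.6 to 154.3 CPM. Of the 9 genes 8 were higher in KI, beside 52.4% of all genes, and 0 were called.

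The lists for hypothalamus, midbrain dopamine neurons, striatum, hippocampus, choroid plexus, cortical excitatory neurons and mature oligodendrocytes had 0 genes called in any of the 5 comparisons by edgeR. Their genes of smallest p with age in KI were Prox1 of hippocampus (adjusted p = 0.0743), Avp of hypothalamus (0.0936), Neurod6 of cortical neurons (0.1), Mobp of oligodendrocytes (0.152), Isl1 of striatum (0.186), Ddc of dopamine neurons (0.38) and Aqp1 of choroid plexus (0.424). The hypothalamic Hcrt and Oxt held at most 6 and 7 counts, and the midbrain factors En1, Foxa2 and Pitx3 at most 1, 3 and 4 counts in any library. Some other genes of these lists reached more. Avp reached 131, Sim1 59 and Gal 57 counts on the hypothalamic list, and Th 117, Ddc 430 and Aldh1a1 2235 counts on the midbrain list. Summed levels of the 11 choroid plexus genes ran from 29.5 to 2281 CPM and did not follow the 10 genes: Ttr, the transthyretin of choroid plexus, held 2207 counts in KI replicate 4 at 3 months, the highest library for the 10 genes, and 101020 counts in KI replicate 5, the lowest KI library of that age. Summed levels of striatal genes ran from 401.3 to 607.1 CPM in control and 411.8 to 481.4 CPM in KI at 3 months, and those of hippocampal genes from 245.5 to 318.8 and 228.6 to 276.9 CPM. Those of the 10 genes themselves ran from 119.2 to 217.1 CPM in control and 155.9 to 289.0 CPM in KI at 3 months, and from 104.0 to 128.7 CPM at 10 months. Within groups, some markers of other cells moved with the score: r was above 0 for 8 of 8 genes of mature oligodendrocytes, with Mog at 0.634, Mobp at 0.586 and Mal at 0.54, and for 9 of 11 hippocampal genes, with Prox1 at 0.652. Summed levels of the 8 oligodendrocyte genes ran from 3151 to 4812 CPM in control and 3414 to 4182 CPM in KI at 3 months, and from 3025 to 4158 and 3486 to 4402 CPM at 10 months, so that the groups overlapped. The part of these cells, dissection, age or genotype in the levels of the 10 genes was not tested.

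**Figure D5:**
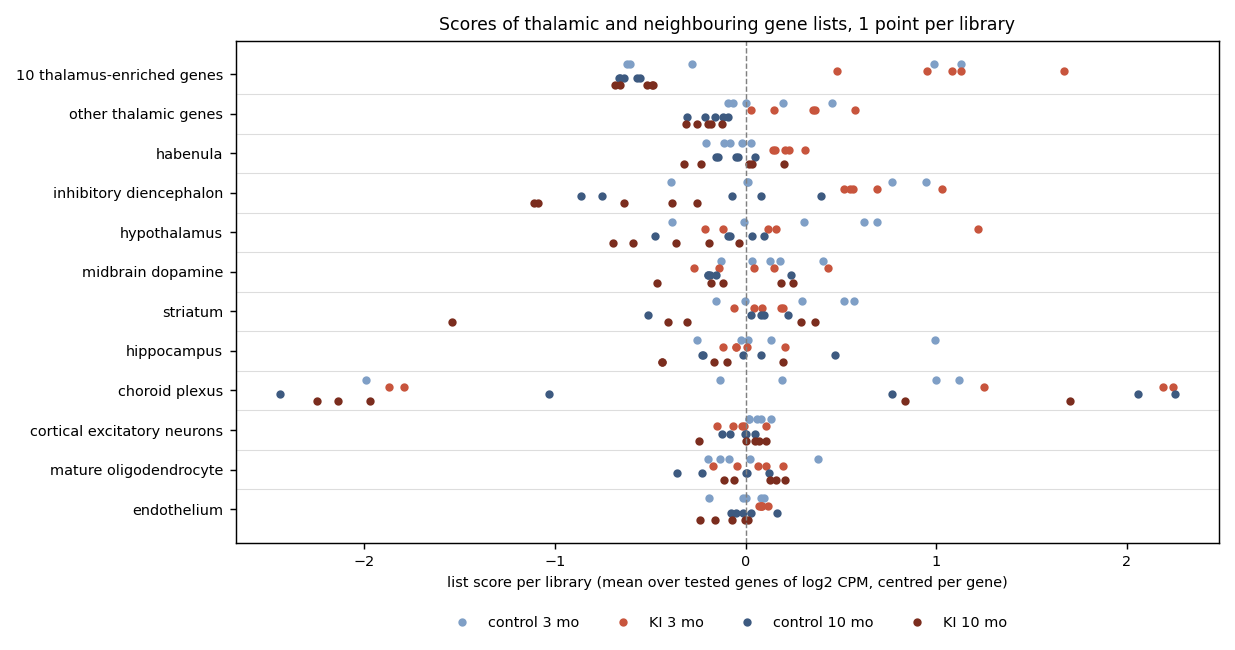
Score of the 10 genes and of 11 gene lists in each library (points, coloured by group), as the mean over tested genes of log2 CPM centred on each gene's mean (horizontal axis). The 10 genes split the 3-month control libraries into 2 near 1 and 3 below 0, and choroid plexus spreads widest in every group.

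With the score of the 10 genes added to the model as a covariate, and the 10 genes left out of the counts, fewer genes were called with age. In KI 296 genes were called in place of 1572, of which 287 were among the 1572, and in control 510 in place of 797, of which 488 were among the 797. Between genotypes at 3 months 4 genes were called in place of 5, and at 10 months 8 in place of 12, with 4 and 8 of them shared. None of the 19 other thalamic genes was called in any of the 5 comparisons with the score in the model. Without the score 7 were called with age in KI and 0 in each other comparison, so only the count with age in KI could fall. In KI the score did not overlap between 3 and 10 months, so the score and age cannot be told apart there.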

How the data were processed

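Counts per gene in 20 libraries were deposited by the authors as 1 table of raw counts on mm10, per the submitters' processing notes, with gene identifiers, coordinates and lengths. The sources used here do not name the aligner, counter, annotation or strand setting. Groups came from the genotype and age labels. Counts were filtered with filterByExpr (19623 genes), scaled by TMM and tested with edgeR 4.0.16 (quasi-likelihood F test, robust, 4 group means, 16 residual degrees of freedom), with Benjamini-Hochberg adjustment over all genes tested and calls at 0.05. Log2 CPM used a prior count of 2. SE was the log2 fold change over the root of F. The test was run on simulated data first.

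The 10 genes, the gene lists and the alternatives were chosen with earlier results of these data known. Named genes are all 10, and from each list the called genes of smallest p (up to 8 of the other thalamic genes, up to 4 of any other list). Where none was called, the rule took the 3 or the 1 of smallest p, printed for the neighbouring lists with age in KI only. The 12 genes most like the score complete it, without predicted genes. Gbx2, Axin2, Ttr, Rsrc1, the markers given by counts and the habenula score were chosen after their values were seen. So were the r of listed markers and the libraries shown for Lhx1 and Gata3. Patj and Drd1 are listed in the table as Inadl and Drd1a, matched by gene identifier.

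Results were recomputed with DESeq2 1.42.0, limma-voom (limma 3.58.1), RLE scaling, either no filter or a mean of at least 1 CPM, the compared groups alone, a replicate block, a threshold of 0.10, the score as a covariate, and without each library in turn. Depth was 42896149 to 57447015 counts; intervals cover counting error only.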

Additional observations from a re-analysis of the deposited data

Results flagged for a closer look

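Of 44 sets of 5 values tested (the 10 genes and their score in each group), 3 held a library far from the others by Dixon's criterion of 0.71, where chance gives about 2.2. Slc17a6, the glutamate transporter, stood at 50.1 CPM in KI replicate 5 at 10 months, with the next library at 34.4 and the lowest at 28.0 CPM. Slitrk6, the synaptic membrane protein, stood at 1.01 CPM in the same library, with the next at 0.464 and the lowest at 0.353 CPM. That library is the one with 54206 counts of Xist, and it held 0 counts of Shox2. Ntng1, the netrin G1, stood at 44.0 CPM in control replicate 7 at 10 months, with the next library at 36.7 and the lowest at 34.1 CPM.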

How the results depend on the processing

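Other than with the score as a covariate, the counts of calls among the 10 genes and the other thalamic genes moved by over 1.5 times only in the age comparison of control. There, of the 10 genes, 2 were called, 1 with limma-voom, 1 to 3 when single libraries were left out (1 without control replicate 8 at 3 months). Of the other thalamic genes 0 were called, 2 at a threshold of 0.10, 2 with DESeq2, 2 with limma-voom, and 0 to 1 when single libraries were left out (1 without control replicate 9 or 10 at 3 months). With age in KI the 10 called became 7 to 10 and the 7 other thalamic genes 6 to 10 without single libraries. Both genotype comparisons and the interaction stayed at 0 in every setting. The score as a covariate moved the calls of all genes with age to 510 from 797 in control and to 296 from 1572 in KI, and those of the other thalamic genes with age in KI to 0 from 7.

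The replicate numbers gave no sign of pairing: 4 of 18 pairs of libraries with the same number correlated above 0.1 (lowest -0.542, highest 0.395), and 2 of 20 libraries correlated best with their own number. With the replicate block, age in control gave 1 call among the 10 genes and 1 among the other thalamic genes. The block moved the 3-month genotype value of Shox2 from 1.27 to 6.28 and of Tnnt1 from 1.16 to 2.18 on the log2 scale. At 10 months it moved Shox2 from 0.61 to 5.34, Tnnt1 from 0.08 to 0.925, Prkcd from 0.01 to 0.492, Tcf7l2 from -0.06 to 0.208, Rgs16 from 0.01 to 0.223 and Vipr2 from 0.00 to 0.374. Control replicates are numbered 6 to 10 and KI replicates 3 to 7, so the block links the genotypes only through numbers 6 and 7. Control replicates 6 and 7 at 3 months held 1 Shox2 count each, and no KI library shares the number of control replicate 8 or 10. These genotype values therefore depend on the numbering. With limma-voom the value of Shox2 with age was -2.95 in control and -5.89 in KI.

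Over the alternatives the log2 fold changes of the 10 genes kept their sign in 169 of 170 values at 3 months, 143 of 169 at 10 months, 169 of 169 with age in control, 170 of 170 with age in KI and 259 of 260 for the interaction. Shox2 was removed by the low-count filter in 1 fit each at 10 months and with age in control. Of the 12 genes most like the score, 7 were shared without subtracting group means, 4 with the 3-month libraries only and 12 without KI replicate 3 at 3 months. At these depths a Shox2 level under 0.0559 to 0.0619 CPM, 3 counts in a library, is not told from 0.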

Other observations

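Endothelial genes were read beside the 10 genes because brain endothelium also uses Lef1, and genes of newly formed oligodendrocytes were read with them. These lists gave a few calls with age in KI, where 2.41% of all genes were lower and 5.66% higher. In the other 4 comparisons 0 were called by edgeR. Of 8 endothelial genes 2 fell and 1 rose: Cldn5, a tight junction protein, fell by 0.78 ± 0.17 on the log2 scale (adjusted p = 0.00437), Cdh5, a cadherin of vessel walls, fell by 0.44 ± 0.10 (adjusted p = 0.0102), and Ly6c1, a surface protein of brain vessels, rose by 0.40 ± 0.11 (adjusted p = 0.0295). Mean Cldn5 was 14.7 ± 4.01 CPM in KI at 3 months and 8.53 ± 0.916 CPM at 10 months (SD, n = 5 each). Of 6 genes of newly formed oligodendrocytes 2 fell and 0 rose, Gpr17, a receptor of immature oligodendrocytes, by 0.60 ± 0.15 (adjusted p = 0.014) and Tmem163, a zinc transporter, by 0.31 ± 0.09 (adjusted p = 0.0334).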
